A study of Homo sapiens with 8 samples.

Results

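Constitutively active YAP was examined in dividing lung fibroblasts, in 4 of the 8 libraries of the study: 2 from proliferating cells grown with doxycycline and 2 from the same cells grown without it. The libraries were taken by the state and treatment in their labels, no measured value entered the choice, and all 17155 genes with enough counts to be tested, of 54628 in the table, are described. IMR90 is a human lung fibroblast line, and the cells of every group carried hTERT, the catalytic part of telomerase, and a pinducer20 vector in which doxycycline switches on YAP5SA with a Flag tag at its N terminus. Cells were cultured in low oxygen with serum, and the treated group received doxycycline at 1 ug/ml for 11 days. The untreated group received none and holds the same vector uninduced. The other 4 libraries come from the same line made senescent by bleomycin, a DNA-breaking drug, again without and with doxycycline, and enter the choice of genes tested, the estimate of spread and the last comparison. The labels do not say whether the line is 1 clone or a pool, nor whether replicates were separate cultures, so a p-value here measures no more than the spread between the samples at hand. No group here received doxycycline without the transgene, so effects of the drug and of YAP5SA cannot be told apart.

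YAP is a transcriptional coactivator that does not bind DNA by itself and acts mainly through the TEAD factors, which recognise the letters GGAATG. The Hippo kinases LATS1 and LATS2 phosphorylate YAP on serines, which keeps it out of the nucleus and marks it for destruction. YAP5SA has those serines replaced by alanine, so the kinases cannot restrain it. In fibroblasts YAP is known to be activated by stiff matrix, stretch and low cell density, to raise secreted CCN proteins and cytoskeletal genes, and to cooperate with TGF-beta signalling and AP-1 factors.

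Levels are given in CPM, a gene's count relative to the TMM-scaled library total, in the order replicate 1 and replicate 2 of each group; the untreated libraries are called U1 and U2 and the doxycycline libraries D1 and D2, and those of senescent cells SU1, SU2, SD1 and SD2. Log2 changes compare doxycycline with none and come with the SE of the fit; adjusted p-values are from edgeR's quasi-likelihood test with Benjamini-Hochberg adjustment over all genes tested, and "rose", "fell", "higher" and "lower" are used of genes with an adjusted p below 0.05. The 4 libraries held 33627708 to 39692162 counts, and 3 counts over a group correspond to 0.0371 CPM without and 0.0399 CPM with doxycycline. Across genes, Pearson's r of log2 CPM was 0.993 between the untreated and 0.990 between the doxycycline libraries, and 0.975 to 0.977 between the groups. D1 and D2 differed from each other by more than U1 and U2 did, the chi-square divided by its degrees of freedom being 17.8 for the first pair and 3.44 for the second, and its part in the results was not tested beyond leaving out each library. Of the 10 fibroblast markers 7 fell and 1 rose, and their summed level went from 27026 and 26826 to 18714 and 18986 CPM. Mesothelial markers summed to 210 and 211 without and 490 and 482 CPM with doxycycline, nearly all of it KRT8 and KRT18, while WT1, UPK3B and ITLN1 had no counts. Markers of epithelial, endothelial, leukocyte, smooth-muscle and neural cells summed to no more with doxycycline than the higher untreated value. KRT5, SFTPC, NKX2-1, CDH5, CLDN5, CD3E, TYROBP, KCNJ8, GAP43 and SOX10 had no counts in the 4 libraries. Of those tested, 1 of 3 epithelial, 2 of 5 endothelial and 0 of 4 leukocyte markers rose, and 0, 1 and 1 fell. Of 7 smooth-muscle markers 2 rose and 2 fell, and of 4 neural markers 1 rose and 1 fell. Of 10 markers each, 9 epithelial, 6 endothelial, 9 leukocyte, 4 smooth-muscle and 6 neural ones stayed under 1 CPM in all 4 libraries. In bulk RNA, fewer cells of a type and less RNA per cell cannot be told apart.

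YAP1 itself (chromosome 11, 102110447 to 102233424, hg38) stood at 198 and 195 CPM without doxycycline and 190.2 and 238 CPM with it (log2 change 0.12, SE 0.10, adjusted p = 0.431). The doxycycline libraries lay on either side of the untreated ones, and without D2 the log2 change was -0.05. YAP1 was thus not called, and these counts do not show induction of the transgene. The count does not separate the cells' own transcript from reads of the transgene, so the transgene was not measured on its own.

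The edgeR test called 3938 of 17155 genes, 23.0% of those tested. Of these 2158, or 12.6%, were higher with doxycycline and 1780, or 10.4%, lower. Rises were larger than falls: 675 genes (3.93%) rose and 209 (1.22%) fell by more than 2-fold, and 374 rose and 34 fell by more than 4-fold. The excess of large rises lay among scarce transcripts. Below 1 CPM 244 genes rose and 25 fell by more than 4-fold, whereas at 100 CPM or above 5 rose and 0 fell that much. Among the genes at 100 CPM or above the calls were nearly even, 326 higher and 309 lower of 1928. Genes called higher took 12.8% of all counts in each untreated library and 18.4% and 18.2% in the doxycycline libraries, while genes called lower went from 19.0% and 18.9% to 12.9% and 13.7%. Without U1 the test called 2099 genes (1224 higher, 875 lower), and without U2 it called 2011 (1171 higher, 840 lower).

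**Figure D1:**
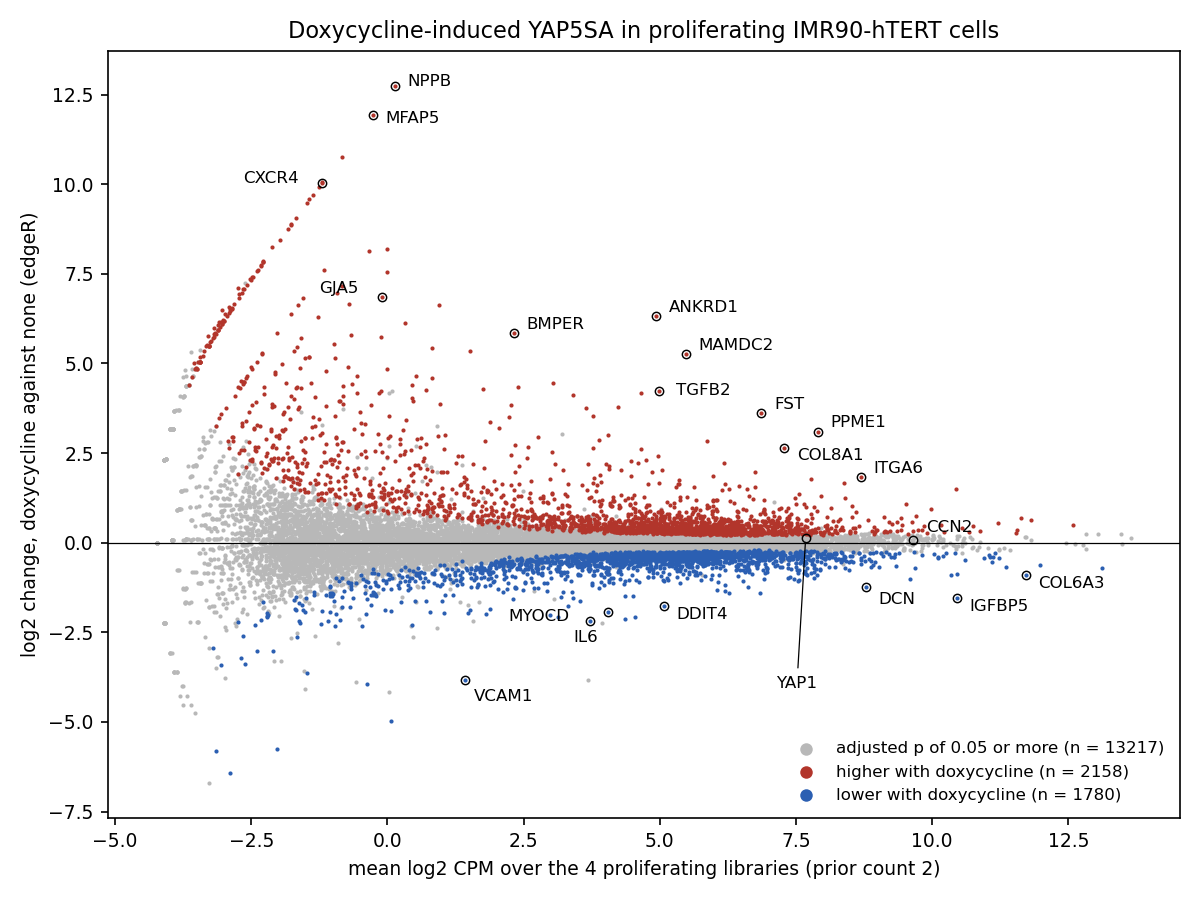
Log2 change with doxycycline in proliferating cells (vertical axis) against mean log2 CPM over the 4 libraries with a prior count of 2 (horizontal axis), 1 point per gene tested, with 2158 genes higher in red, 1780 lower in blue and the rest in grey. The points far above the line at 0 lie mostly at low levels, and the straight upper edge at the left is made of genes without counts in untreated cells, whose fitted change depends on the prior count.

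The strongest rises at a mean of at least 3 log2 CPM were led by ANKRD1, a nuclear and sarcomeric ankyrin-repeat protein and a widely used YAP target (chromosome 10, 90912096 to 90921087). It stood at 3.08 and 3.68 CPM without doxycycline and 277 and 266 CPM with it (log2 change 6.33, SE 0.15, adjusted p = 2.76e-13). MAMDC2, a secreted proteoglycan of the extracellular matrix (chromosome 9, 70043581 to 70226972), stood at 6.93 and 7.42 CPM without doxycycline and 278 and 269.7 CPM with it (log2 change 5.25, SE 0.12, adjusted p = 2.76e-13). TGFB2, a TGF-beta ligand (chromosome 1, 218345336 to 218444619), stood at 6.86 and 7.84 CPM without doxycycline and 123 and 152 CPM with it (log2 change 4.23, SE 0.12, adjusted p = 1.92e-12). In all 3 genes both doxycycline libraries lay far above both untreated ones. Of the 12 largest rises 10 had a promoter window in RefSeq, and those of ANKRD1, MAMDC2 and TGFB2 were the 3 that held the TEAD letters; those of ZNF185, PAPPA, SYNPO2L, FST, LMCD1, PPME1 and EDN1 held none. These 3 genes are therefore shown for their letters and do not stand for the largest rises. For them the 250 bases before the start are shown from RefSeq (build GRCh38.p14), together with those of CCN2, the best-known YAP target in fibroblasts, with the letters GGAATG or CATTCC and, in ANKRD1, the AP-1 letters TGATTCA in capitals. They read 5′ to 3′ on the strand of the gene, at chr10:90921088-90921337 (minus strand), chr9:70043331-70043580 (plus), chr1:218345086-218345335 (plus) and chr6:131951373-131951622 (minus).

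ANKRD1: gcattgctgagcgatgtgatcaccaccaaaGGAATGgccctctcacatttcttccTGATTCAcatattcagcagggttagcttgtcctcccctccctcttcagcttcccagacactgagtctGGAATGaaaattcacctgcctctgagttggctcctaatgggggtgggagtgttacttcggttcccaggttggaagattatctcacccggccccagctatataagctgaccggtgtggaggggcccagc

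MAMDC2: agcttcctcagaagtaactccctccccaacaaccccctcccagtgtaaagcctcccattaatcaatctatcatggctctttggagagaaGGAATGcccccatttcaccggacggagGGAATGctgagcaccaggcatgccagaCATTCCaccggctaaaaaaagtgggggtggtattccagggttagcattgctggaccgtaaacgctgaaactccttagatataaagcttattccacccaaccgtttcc

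TGFB2: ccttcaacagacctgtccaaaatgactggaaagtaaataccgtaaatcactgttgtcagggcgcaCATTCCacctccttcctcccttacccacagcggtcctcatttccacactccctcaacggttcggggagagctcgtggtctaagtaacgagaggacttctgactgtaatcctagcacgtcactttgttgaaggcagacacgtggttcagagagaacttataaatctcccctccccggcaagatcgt

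CCN2: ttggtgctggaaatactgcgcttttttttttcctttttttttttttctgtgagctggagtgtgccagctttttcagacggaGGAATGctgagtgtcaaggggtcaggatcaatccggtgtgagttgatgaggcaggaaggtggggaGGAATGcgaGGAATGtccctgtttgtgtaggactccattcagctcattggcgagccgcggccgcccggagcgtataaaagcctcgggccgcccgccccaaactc

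MAMDC2 held the TEAD letters at 161 to 156, 134 to 129 and 107 to 102 bases before its start, ANKRD1 at 220 to 215 and 128 to 123, TGFB2 at 185 to 180, and CCN2 at 169 to 164, 104 to 99 and 95 to 90. The AP-1 letters of ANKRD1 lay 195 to 189 bases before the start. CCN2, with as many TEAD matches as MAMDC2, was not called: it stood at 784 and 786 CPM without doxycycline and 843 and 803 CPM with it (log2 change 0.067, SE 0.09, adjusted p = 0.632). RefSeq windows from 250 bases before to 50 after the start were at hand for 12072 of the 17155 genes tested, and GGAATG was searched on both strands. It occurred in 224 of 1663 windows of genes called higher (13.47%), in 10.97% of those called lower and in 11.22% of those not called. Among genes more than 2-fold higher the share was 76 of 454 (16.74%), and among those more than 2-fold lower 16 of 137 (11.68%). Among all 27305 windows of the table, untested genes included, it was 14.05%. The AP-1 letters TGANTCA, on both strands, occurred in 8.81% of windows of genes more than 2-fold higher and 7.299% of those more than 2-fold lower. They occurred in 5.165% of windows of genes not called and 7.76% of all windows. The SRF CArG box, on both strands, was found in 6 of 137 windows of genes more than 2-fold lower (4.38%), in 1.101% of those more than 2-fold higher and in 1.285% of all windows. Base composition, whose part in these shares was not tested, differed between the sets. The median GC content was 60.67% in windows of genes more than 2-fold higher, 61% in those more than 2-fold lower and 64.67% in those of all genes tested. A match of these letters is a description of the sequence and not a binding site.

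Among the other 9 of the 12 largest rises LMCD1, a LIM-domain transcriptional cofactor of muscle, rose from 4.15 and 3.83 to 47.8 and 45.2 CPM (log2 change 3.54, SE 0.10). SYNPO2L, an actin-associated muscle protein, rose from 3.12 and 3.63 to 44.6 and 47.5 CPM, and TRIM55, a sarcomeric ubiquitin ligase, from 4.96 and 5.16 to 70.5 and 68.5 CPM. ZNF185, a LIM-domain protein of the actin cytoskeleton, rose from 1.76 and 1.70 to 36.2 and 40.5 CPM (log2 change 4.47, SE 0.13). None of these 4 reached 6 CPM in an untreated library. FST, the secreted inhibitor of activin, rose from 31.6 and 35 to 420.0 and 396 CPM (log2 change 3.62, SE 0.09). EDN1, the precursor of the vasoconstrictor endothelin, rose from 6.30 and 5.34 to 47.2 and 47.0 CPM (log2 change 3.02, SE 0.12). PAPPA, a secreted protease that cleaves IGF-binding proteins, rose from 5.74 and 6.19 to 93.9 and 121 CPM (log2 change 4.17, SE 0.17, adjusted p = 2.10e-08), and the overlapping PAPPA-AS1 from 2.15 and 2.96 to 37.1 and 51.0 CPM. Whether the counting used strand is not known here, and reads of that pair cannot be told apart. PPME1, a methylesterase that acts on protein phosphatase PP2A (chromosome 11, 74171289 to 74254703), rose from 79.3 and 83.2 to 705 and 689 CPM (log2 change 3.10, SE 0.10). Its neighbour C2CD3, a centriole protein looked at after the values were seen, stood at 26.0 and 27.2 CPM without doxycycline and 60.0 and 69.1 CPM with it (log2 change 1.28, SE 0.10, adjusted p = 1.10e-07).

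The largest falls were smaller than the largest rises. IL6, an inflammatory cytokine, fell from 27.6 and 28.5 to 6.62 and 5.73 CPM (log2 change -2.19, SE 0.26, adjusted p = 0.00160). MASP1, a protease of the lectin arm of complement, fell from 40.9 and 44.6 to 9.71 and 9.95 CPM (log2 change -2.12, SE 0.09). CEMIP, which takes part in hyaluronan breakdown, fell from 48.1 and 47.9 to 11.7 and 11.1 CPM, and the pentraxin NPTX1 from 18.3 and 17.4 to 3.79 and 4.64 CPM. In each of these genes the highest doxycycline value was under the lowest untreated one by more than 3-fold. MYOCD, the muscle coactivator of serum response factor, fell from 32.6 and 32.1 to 7.83 and 9.01 CPM (log2 change -1.94, SE 0.12, adjusted p = 7.78e-09). DDIT4, an inhibitor of mTORC1 induced by stress and low oxygen, fell from 62.8 and 62.2 to 20.4 and 16.4 CPM (log2 change -1.77, SE 0.13). The neutrophil chemokine CXCL8 fell from 19.4 and 17.1 to 5.12 and 5.68 CPM, the cytokine LIF from 36.0 and 33.0 to 11.4 and 12.9 CPM and the proteoglycan BGN from 15.2 and 15.2 to 4.97 and 5.68 CPM. The poly(A) polymerase TENT5C and the actin-binding SHROOM2 fell with log2 changes of -1.62 and -1.54. The 2 doxycycline libraries lay close together in all 12 of these genes. IGFBP5, an IGF-binding protein, fell from 2424 and 2374 to 793 and 842 CPM (log2 change -1.55, SE 0.09, adjusted p = 7.78e-09). Leaving out 1 library ended the calls of CXCL8 (without D1 or D2, adjusted p up to 0.0940).

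**Figure D2:**
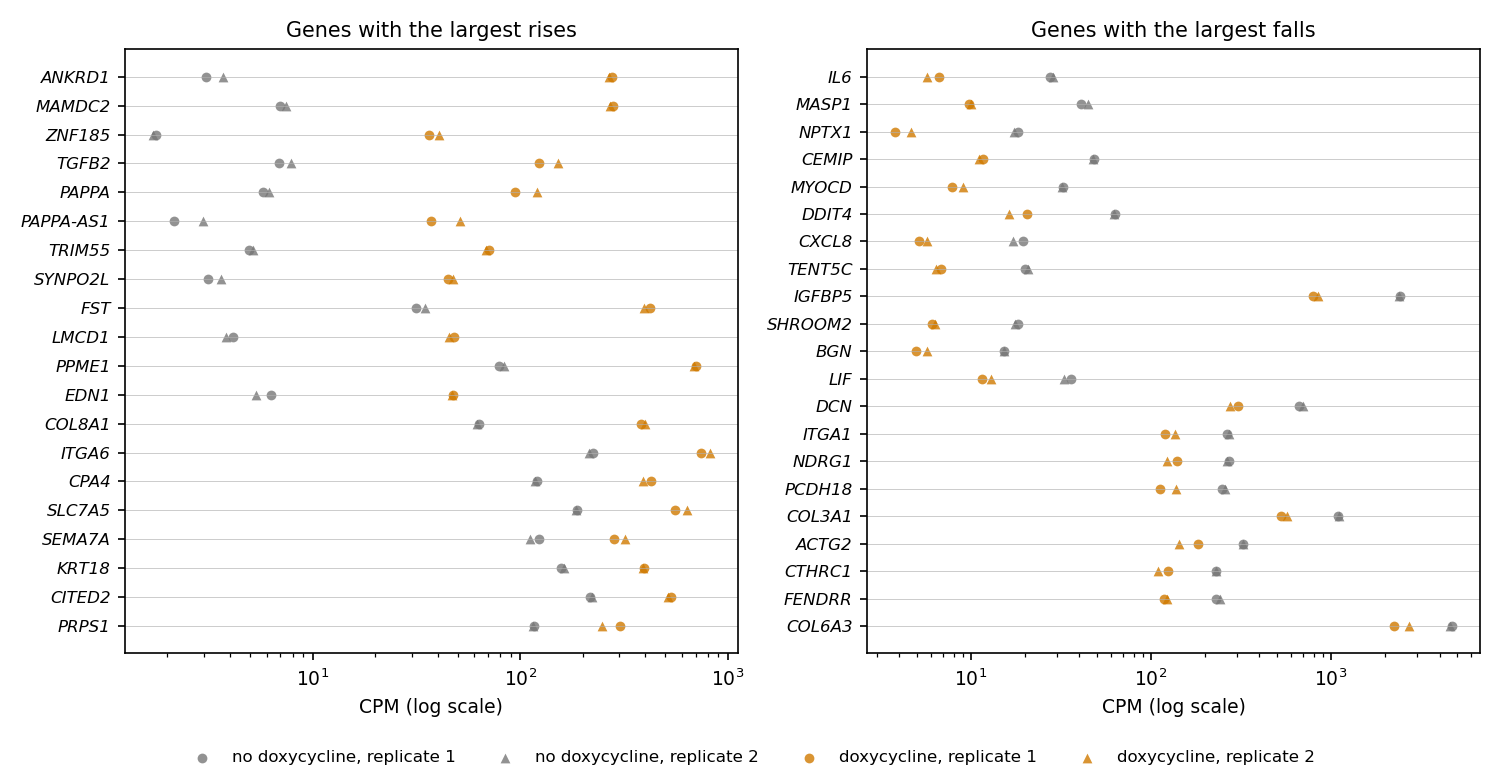
CPM on a log scale (horizontal axis) of the genes with the largest rises (left) and falls (right), at a mean of at least 3 log2 CPM and, in the lower rows, at least 7; grey marks the libraries without and orange those with doxycycline, circles replicate 1 and triangles replicate 2. Orange and grey marks do not overlap in any row, which the choice of these genes required.

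At a mean of at least 7 log2 CPM COL8A1, a short-chain collagen, rose from 63.1 and 61.7 to 379.9 and 399 CPM. ITGA6, a laminin-binding integrin, rose from 224 and 215 to 744 and 817 CPM. SLC7A5, a transporter of large neutral amino acids, rose from 188 and 186 to 558 and 635 CPM. CPA4, a carboxypeptidase, SEMA7A, a membrane-anchored semaphorin, KRT18, a keratin of simple epithelia, CITED2, a transcriptional regulator that restrains HIF, and PRPS1, which makes the ribose donor of nucleotides, rose with log2 changes of 1.77, 1.36, 1.29, 1.25 and 1.25. KRT18 overlaps KRT8 in the annotation and its reads are uncertain to that extent. On the falling side DCN, the small proteoglycan decorin, went from 665 and 694 to 302 and 274 CPM (log2 change -1.24, SE 0.09, adjusted p = 4.35e-08). COL6A3 fell from 4687 and 4571 to 2248 and 2698 CPM and COL3A1 from 1089 and 1108 to 526 and 566 CPM. ACTG2, a smooth-muscle actin, fell from 326 and 323 to 182 and 143 CPM. ITGA1, a collagen-binding integrin, NDRG1, a gene induced by low oxygen, the protocadherin PCDH18, the matrix protein CTHRC1 and the lung mesenchymal noncoding RNA FENDRR had log2 changes from -1.06 to -0.96.

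Transcripts without counts in either untreated library formed a separate class. Of 195 such genes that were tested, 88 were called higher, and all of these could be tested only because counts were present in another group, so the count is a description. NPPB, the heart peptide BNP, had 919 and 783 counts with doxycycline, or 27.0 and 19.0 CPM, at least 610-fold above the 3 counts that a group without counts allows. MFAP5, a microfibril protein of elastic tissue, reached 12.7 and 13.4 CPM, at least 352-fold higher. OR7E19P, an olfactory receptor pseudogene with close copies elsewhere in the genome, reached 5.44 and 6.19 CPM. The homeobox gene DUXA reached 3.82 and 3.25 CPM, the chemokine receptor CXCR4 3.74 and 3.28, the mast cell carboxypeptidase CPA3 3.38 and 3.06, the leukocyte receptor SLAMF7 2.77 and 2.77, and the adaptor PPFIBP2 2.41 and 2.31. Both doxycycline libraries were above 2 CPM in each of these 8 genes. All 10 leukocyte markers together summed to 52.6 and 55.0 CPM with doxycycline against 72.8 and 69.2 without, and CD3E and TYROBP had no counts. Of these 10 markers 9 stayed under 1 CPM in all 4 libraries, so the sum rests mainly on 1 gene.

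The other genes are described in 43 lists of known pathways and families, 1522 genes of which 1297 were tested. A member without counts in untreated cells was tested only through counts in another group, so it could rise but not fall. List counts are read against the shares over all genes, 12.6% higher and 10.4% lower, and list medians against the median over all genes tested, a log2 change of 0.00073. In every gene named as higher or lower whose values are printed, both doxycycline libraries lay on 1 side of both untreated ones. A count that moved by more than 1.5 times when 1 library was left out is given with the value without that library, and a gene whose call ended is named with its highest adjusted p (edgeR) over the libraries that ended it.

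**Figure D3:**
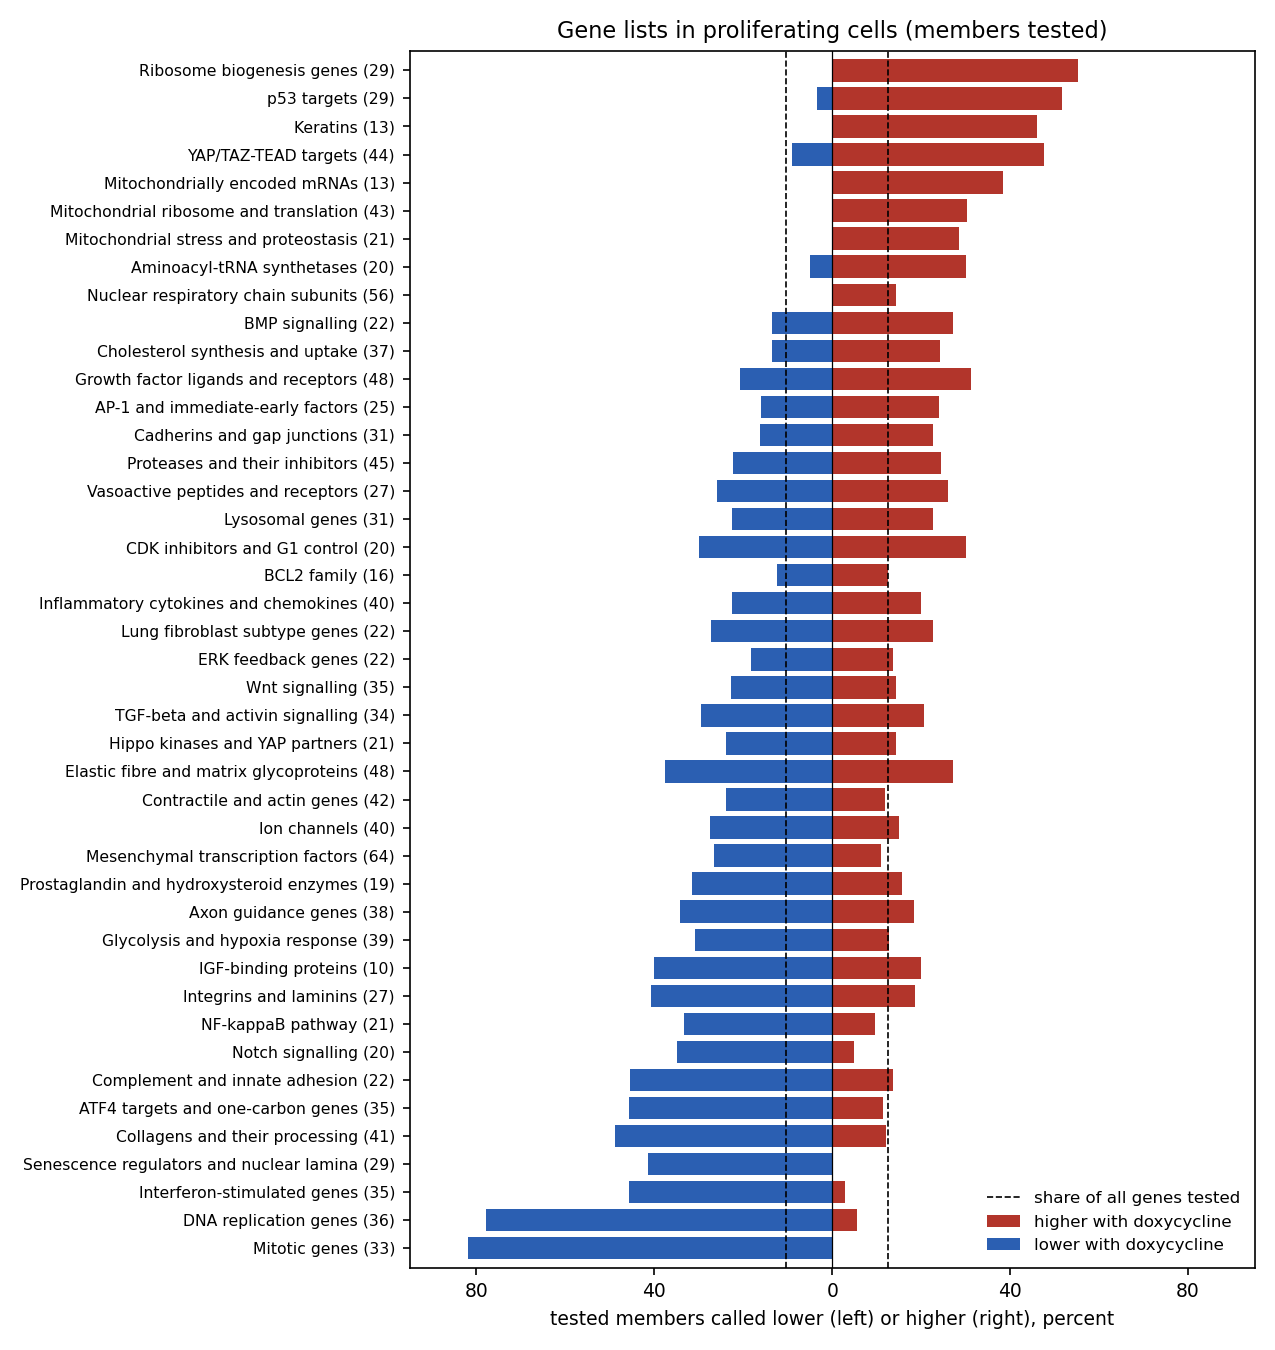
Percent of the tested members of each of 43 gene lists called higher (red, right) or lower (blue, left) with doxycycline, with the number tested in brackets and dashed lines at the shares over all genes tested. Mitotic and replication lists stand at the lower end with 27 of 33 and 28 of 36 members lower, and ribosome biogenesis and p53 targets at the upper end with 16 of 29 and 15 of 29 members higher.

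Known targets of YAP and TEAD rose far more often than they fell, and some of the best known did not pass the test. Of 44 genes chosen as targets 21 rose and 4 fell, with a median log2 change of 0.23. The rises were large in a few genes and modest in most. WWC1, the Hippo scaffold KIBRA, rose from 2.64 and 2.23 to 17.0 and 20.7 CPM, and the kinase LATS2 from 57.2 and 58.0 to 154 and 174 CPM. AMOTL2, an angiomotin that holds YAP in the cytoplasm, rose from 147 and 144 to 269.9 and 312 CPM, and AJUBA, NF2 and PTPN14, further YAP regulators, with log2 changes of 0.61, 0.56 and 0.55. CCN1, the secreted sister of CCN2, rose from 516 and 509.7 to 759 and 715 CPM (log2 change 0.52, SE 0.09), and THBS1 with a log2 change of 0.46. The filamin gene FLNA, the kinase NUAK2, the survivin gene BIRC5 and FOXF2 fell, with log2 changes of -0.40, -0.44, -0.37 and -0.38. The smooth-muscle target TAGLN stood at 776 and 742 CPM without doxycycline and 690.0 and 622 CPM with it and was not called. With 1 library left out, the lower count was 1 without U1 or U2. The calls that ended with 1 library left out were those of FLNA (without U1, U2, D1, SU1 or SU2, adjusted p up to 0.292), NUAK2 (without U1, adjusted p = 0.0912), BIRC5 (without U1, U2 or D2, adjusted p up to 0.183) and FOXF2 (without U2, adjusted p = 0.0927).

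The list of Hippo kinases and partners of YAP leaves out LATS2, WWC1, AMOTL2, AJUBA, NF2 and PTPN14. These rose and are counted above as targets. Of the 21 tested genes on the list 3 were higher and 5 lower, and the called changes were small. The cofactor VGLL3, the kinase adaptor MOB1B and TEAD4 rose, with log2 changes of 0.48, 0.44 and 0.36, and TEAD3 and TEAD2 fell, with log2 changes of -0.41 and -0.35. WWTR1, the YAP paralog TAZ, fell from 59.7 and 60.1 to 44.8 and 53.5 CPM (log2 change -0.28, SE 0.09). TEAD1 stood at 189 and 185 CPM without doxycycline and 183 and 225 CPM with it and was not called. When libraries were removed singly, the higher count was 1 without U1, U2 or D2, and the lower count was 1 without U1, 0 without U2 and 2 without D1. Dropping 1 library lost the calls of VGLL3 (without U1, U2 or D2, adjusted p up to 0.135), TEAD4 (without U1, U2, D1 or D2, adjusted p up to 0.216), TEAD3 (without U2, adjusted p = 0.0550) and TEAD2 (without U1 or U2, adjusted p up to 0.0967). Likewise for WWTR1 (without U1, U2, D1 or SD2, adjusted p up to 0.210).

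In TGF-beta and activin signalling 7 of 34 genes rose and 10 fell (median -0.076). The ligands moved in different directions. TGFB2 rose as described above and INHBA, the activin A subunit, rose from 36.4 and 36.3 to 55.0 and 76.1 CPM, whereas TGFB1 fell from 170.3 and 176 to 104 and 119 CPM (log2 change -0.64, SE 0.16, adjusted p = 0.0225) and INHBE from 0.781 and 1.05 to 0.294 and 0.170 CPM. Both activin inhibitors rose, FST as above and FSTL3 from 71.4 and 68.0 to 129 and 132 CPM. All 4 latent TGF-beta binding proteins fell, LTBP1, LTBP2, LTBP3 and LTBP4 with log2 changes of -0.46, -0.67, -0.35 and -0.77, while LRRC32, which displays latent TGF-beta on the cell surface, rose from 1.54 and 1.28 to 4.0 and 4.78 CPM. The receptor TGFBR1 rose with a log2 change of 0.46 and the signal transducer SMAD3 fell from 267 and 266 to 146 and 152 CPM (log2 change -0.84, SE 0.08). In refits lacking 1 library, the lower count was 6 without U1, U2 or D1. With 1 library fewer the calls ended for TGFB1 (without U1, U2, D1 or D2, adjusted p up to 0.228) and LTBP3 (without U1, U2, D1, D2, SU1 or SU2, adjusted p up to 0.220).

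BMP signalling showed its largest changes in secreted antagonists. Of 22 genes tested 6 rose and 3 fell (median -0.08). BMPER, a secreted modulator of BMPs, rose from 0.659 and 0.601 to 37.5 and 35.6 CPM (log2 change 5.85, SE 0.14, adjusted p = 2.76e-13), CHRDL1, a chordin-like antagonist, from 0.561 and 0.501 to 4.33 and 3.74 CPM, and GREM1 from 22.5 and 20.9 to 27.4 and 34.8 CPM. The BMP targets ID1 and ID3 rose, ID3 from 69.7 and 62.4 to 132 and 124 CPM. The receptor BMPR1B rose but stayed under 1 CPM, and the transducer SMAD1 fell from 7.76 and 9.02 to 5.09 and 5.10 CPM. Lost on leaving out 1 library were the calls of BMPR1B (without U1, U2, D1, D2, SD1 or SD2, adjusted p up to 0.233).

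Collagen genes fell more often than they rose. Of 41 collagen and collagen-processing genes 20 fell and 5 rose, and the median log2 change was -0.37. The fibrillar collagens COL1A1, COL1A2, COL3A1, COL5A1 and COL5A2 fell with log2 changes of -0.70, -0.63, -1.01, -0.59 and -0.66. COL1A1 had 11240.0 and 11240.0 CPM without doxycycline and 6544 and 7328 CPM with it. COL6A1, COL6A2 and COL6A3, which form beaded filaments, fell by 0.87 to 0.90, and COL5A3 fell from 3.66 and 3.38 to 0.765 and 1.5 CPM, with the doxycycline libraries apart from each other. Rises were confined, among the genes tested, to COL8A1 and the scarce COL11A1 (0.220 and 0.0752 against 0.441 and 0.704 CPM), and to 3 enzymes: the cross-linking LOX (513 and 491 against 1013 and 1112 CPM), LOXL4 (8.13 and 6.76 against 25.8 and 26.1 CPM) and the lysyl hydroxylase PLOD2. LOX overlaps SRFBP1 in the annotation. Of the 10 fibroblast markers summed above, 3 are COL1A1, COL1A2 and COL3A1, so that sum is not a separate measurement. Leaving out 1 library ended the calls of COL5A1 (without U1, U2, D1, D2, SU1 or SU2, adjusted p up to 0.316) and COL11A1 (without U2 or D2, adjusted p up to 0.0789).

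Elastic fibre and matrix glycoprotein genes moved both ways, 13 of 48 higher and 18 lower (median -0.15). Fibrillins went apart: FBN2 rose from 7.42 and 7.49 to 32.3 and 36.5 CPM (log2 change 2.21, SE 0.15) and FBN1 fell from 576 and 558 to 362 and 428 CPM (log2 change -0.52, SE 0.11). Fibulins did so too, with EFEMP1, or fibulin-3, rising from 2.03 and 2.0 to 11.0 and 11.1 CPM while FBLN1 and FBLN2 fell with log2 changes of -0.72 and -0.81. Hyaluronan enzymes moved against each other as well, the synthase HAS2 rising from 5.88 and 4.93 to 32.7 and 35.5 CPM and CEMIP falling as given above. SPP1, or osteopontin, had 1 count in the untreated libraries together and 0.471 and 0.728 CPM with doxycycline. Fibronectin FN1 fell with a log2 change of -0.42, tenascin TNC with -0.76 and the CCN family member CCN4 with -1.35. The proteoglycans LUM and VCAN rose with log2 changes of 0.56 and 0.36 while BGN and DCN fell. The calls that ended with 1 library left out were those of FN1 (without U1, U2 or D1, adjusted p up to 0.148) and VCAN (without U1, U2 or D2, adjusted p up to 0.196).

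Proteases and their inhibitors were even, with 11 of 45 higher and 10 lower. SERPINB2, an inhibitor of urokinase, rose from 22.7 and 20.8 to 152 and 157 CPM (log2 change 2.83, SE 0.11). The collagenase MMP1 rose from 295 and 282 to 497 and 539 CPM, although it overlaps WTAPP1, and the gelatinase MMP2 fell from 425 and 435 to 249 and 279 CPM. MMP15, a membrane-bound metalloproteinase, rose from 0.464 and 0.476 to 2.27 and 2.28 CPM. Of the ADAM proteases 4 rose and 0 fell among 15 tested, with ADAMTS1 from 259.6 and 260.4 to 512 and 548 CPM and the scarce ADAMTS16 at 0.0244 and 0.0250 CPM without and 1.09 and 1.19 CPM with doxycycline. Urokinase PLAU fell with a log2 change of -0.71 and its receptor PLAUR rose with 0.53. Dropping 1 library lost the calls of WTAPP1 (without D2, adjusted p = 0.0619).

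Of 27 integrin and laminin genes 11 fell and 5 rose (median -0.24). Of 17 integrins tested 8 fell and 3 rose. ITGA1, ITGA2, ITGAV, ITGA5 and ITGB1 were among those that fell, with log2 changes of -1.06, -0.49, -0.47, -0.27 and -0.30. The laminin-binding ITGA3, ITGA6 and ITGA7 rose, with log2 changes of 0.30, 1.83 and 1.44. The laminin chain LAMA5 fell from 8.45 and 8.52 to 3.27 and 4.47 CPM. ITGA1 and ITGA7 each overlap another counted gene. On removal of 1 library at a time, the higher count was 3 without U1 or U2, and the lower count was 7 without U1 and 6 without D1. With 1 library fewer the calls ended for ITGA2 (without D1, adjusted p = 0.0534), ITGAV (without D1, adjusted p = 0.0522), ITGA5 (without U1, U2 or D1, adjusted p up to 0.238) and ITGB1 (without U1, U2, D1, SD1 or SD2, adjusted p up to 0.273). Likewise for ITGA3 (without U1, U2 or D2, adjusted p up to 0.214).

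Contractile and actin genes fell more often than they rose. Of 42 tested 5 rose and 10 fell, with a median of -0.063. Genes of the smooth-muscle programme were among those that fell: MYOCD and ACTG2 as given above, the smooth-muscle actin ACTA2 from 234 and 245 to 152 and 132 CPM (log2 change -0.76, SE 0.10, adjusted p = 3.13e-05), LMOD1 from 50.3 and 50.9 to 23.6 and 25.7 CPM, MYLK with a log2 change of -0.68 and CNN1 with -0.38. ACTA2 overlaps ACTA2-AS1 and FAS in the annotation. LIMA1, an actin-bundling protein, rose from 160.5 and 163 to 312 and 329 CPM, the muscle filamin FLNC with a log2 change of 0.94, and the cardiac actin ACTC1, with 1 count in untreated cells, reached 0.353 and 0.316 CPM. The factor SRF and its coactivators MRTFA and MRTFB, which act on genes of this programme, were not called, with log2 changes of -0.12, -0.12 and -0.16. Without D2 MRTFA was called lower (log2 change -0.28, adjusted p = 0.0324, edgeR). By library left out, the higher count was 3 without U1, and the lower count was 6 without U2. Lost on leaving out 1 library were the calls of CNN1 (without U1 or U2, adjusted p up to 0.0529) and ACTC1 (without U1, adjusted p = 0.0770).

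Growth factors and their receptors held 15 higher and 10 lower of 48 tested, with a median of 0.085, or 0.10 with genes lacking counts in a group set at their bound. Of the EGF family ligands 3 are given, all higher: HBEGF from 5.76 and 5.11 to 42.3 and 36.7 CPM (log2 change 2.86, SE 0.12), NRG1 from 24.2 and 26.3 to 52.8 and 52.5 CPM and EREG from 11.2 and 12.2 to 16.1 and 19.4 CPM. The receptor ERBB3 rose from 1.56 and 1.58 to 4.65 and 4.49 CPM. FGFR4 rose from 0.635 and 0.651 to 2.71 and 3.03 CPM, FGF2 with a log2 change of 0.46, and FGF9, without counts in untreated cells, reached 0.0588 and 0.121 CPM. In the PDGF and VEGF family 6 of 14 fell and 0 rose, among them the receptor PDGFRA from 134 and 147 to 71.5 and 82.2 CPM, PDGFD from 7.76 and 7.99 to 2.97 and 3.62 CPM and VEGFA from 115 and 117 to 69.7 and 67.2 CPM. The mesenchymal ligands HGF and IGF2 fell, from 188 and 188 to 68.1 and 72.9 CPM and from 12.1 and 10.6 to 3.21 and 6.99 CPM. With 1 fewer library, the lower count was 6 without U1 or U2. Leaving out 1 library ended the calls of FGF9 (without U1, U2, D2, SD1 or SD2, adjusted p up to 0.134) and IGF2 (without U1, U2, SU1, SU2, SD1 or SD2, adjusted p up to 0.232).

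Genes induced by the ERK kinases as feedback were mixed, 3 of 22 higher and 4 lower. The phosphatases DUSP5 and DUSP1 rose, from 50.7 and 50.9 to 164 and 139.7 CPM and from 47.5 and 44.0 to 132 and 127 CPM, and the cyclin CCND1 from 665 and 633 to 919 and 999.9 CPM. EGR1, an immediate-early factor, fell from 102 and 95.4 to 42.8 and 48.8 CPM, and DUSP6 and SPRED2 with log2 changes of -0.34 and -0.37. Leaving out libraries singly, the lower count was 1 without U1 or U2 and 2 without D1. Of 25 AP-1 and immediate-early factors 6 rose and 4 fell. KLF2, a factor induced by flow, rose from 6.49 and 7.14 to 17.6 and 23.6 CPM and MYC from 22.1 and 21.8 to 34.9 and 33.9 CPM, whereas JUNB fell from 30.1 and 28.1 to 16.8 and 19.7 CPM, JDP2, which binds JUN, from 29.4 and 30.2 to 19.8 and 18.6 CPM and ATF3 from 5.69 and 5.86 to 3.85 and 3.98 CPM. The AP-1 subunits JUN and FOSL1 were not called, with log2 changes of 0.028 and 0.10. With single libraries dropped, the higher count was 3 without U2, and the lower count was 2 without U2 or D1. The calls that ended with 1 library left out were those of DUSP6 (without U1, U2 or D1, adjusted p up to 0.116), SPRED2 (without U1, U2 or D1, adjusted p up to 0.0962) and ATF3 (without U2 or D1, adjusted p up to 0.0721).

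IGF-binding proteins fell in 4 and rose in 1 of 7 tested cases. IGFBP2, IGFBP4 and IGFBP7 fell with log2 changes of -1.01, -0.40 and -0.69, IGFBP5 as given above, and IGFBP3, a listed YAP target, rose from 641 and 576 to 787 and 774 CPM. With their proteases the list held 10 tested genes, 2 higher and 4 lower. With 1 library left out, the higher count was 1 without U1, U2, D1 or D2, and the lower count was 2 without U1 or D2. Dropping 1 library lost the calls of IGFBP2 (without U1, D1 or D2, adjusted p up to 0.340), IGFBP4 (without U1, U2 or D2, adjusted p up to 0.0929) and IGFBP3 (without U1, U2, D1 or D2, adjusted p up to 0.313).

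Wnt signalling genes were 5 higher and 8 lower of 35 tested (median -0.053). The co-receptors LRP5 and LGR4 rose, from 5.39 and 4.91 to 10.4 and 12.1 CPM and from 12.8 and 13.6 to 25.2 and 29.0 CPM. Genes induced by the pathway or feeding back on it that fell were AXIN2 from 1.95 and 1.78 to 0.677 and 1.09 CPM, TNFRSF19 from 88.7 and 86.1 to 44.2 and 41.8 CPM and the inhibitor APCDD1 from 5.39 and 5.34 to 1.29 and 1.46 CPM. When libraries were removed singly, the higher count was 3 without U2, and the lower count was 4 without U1, 3 without U2 and 5 without D1. In Notch signalling 1 gene rose and 7 fell of 20 tested (median -0.24). The receptor NOTCH3 fell from 29.0 and 26.0 to 16.7 and 20.0 CPM, the ligand DLL4 from 20.6 and 18.2 to 13.1 and 15.5 CPM and the coactivator MAML3 with a log2 change of -0.49, while the target HES4 rose from 3.00 and 4.01 to 5.62 and 6.87 CPM. HEYL, another target, stood at 0.293 and 0.276 CPM without doxycycline and had no counts with it. In refits lacking 1 library, the higher count was 0 without U1 or D2, and the lower count was 1 without U1, 2 without U2 and 3 without D1. With 1 library fewer the calls ended for AXIN2 (without U1, U2 or D1, adjusted p up to 0.140), NOTCH3 (without U1 or D1, adjusted p up to 0.0617), DLL4 (without U1, U2 or D1, adjusted p up to 0.258) and MAML3 (without U1 or U2, adjusted p up to 0.0549). Likewise for HES4 (without U1 or D2, adjusted p up to 0.112).

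Transcription factors of the mesenchyme fell more often than they rose, 17 against 7 of 64 tested (median -0.15). FOXF1, a factor of lung mesenchyme, fell from 317 and 331 to 172 and 177 CPM (log2 change -0.89, SE 0.09, adjusted p = 2.64e-06), TWIST1 from 45.8 and 44.2 to 25.2 and 21.9 CPM and CEBPD from 23.1 and 26.3 to 12.9 and 12.2 CPM. PRRX1, ZEB1, TBX5 and MEIS1 fell with log2 changes of -0.69, -0.67, -0.45 and -0.68. HOXB5 rose from 29.3 and 31.7 to 55.8 and 49.1 CPM, although it overlaps HOXB-AS3, and HOXC6, without counts in untreated cells, reached 0.118 and 0.340 CPM. On removal of 1 library at a time, the higher count was 3 without U1 or U2, and the lower count was 10 without U2. Genes that mark lung fibroblast subtypes were 5 higher and 6 lower of 22 tested, with no single direction: of the adventitial genes MFAP5 and CD34 (0.293 and 0.426 against 0.765 and 1.12 CPM) rose, of the alveolar genes SLIT2 and INMT fell and TCF21 rose, and of the fibrosis-associated genes CTHRC1 fell and COL11A1 rose. By library left out, the higher count was 3 without U1, U2 or D2. Lost on leaving out 1 library were the calls of PRRX1 (without U1 or U2, adjusted p up to 0.0544), TBX5 (without U2 or D1, adjusted p up to 0.123), HOXC6 (without U1, U2 or D2, adjusted p up to 0.0837) and CD34 (without U1 or D2, adjusted p up to 0.132).

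Axon guidance genes, also used in cell migration, were 7 higher and 13 lower of 38 tested (median -0.11). SLIT2 and its receptors ROBO1 and ROBO2 fell, SLIT2 from 15.2 and 14.4 to 6.65 and 7.55 CPM and the receptors with log2 changes of -0.31 and -0.78. The ephrin EFNB2 rose from 3.66 and 3.88 to 9.50 and 10.2 CPM, SEMA6A from 1.49 and 1.63 to 2.68 and 3.40 CPM, and NTNG1, without counts in untreated cells, reached 0.176 and 0.170 CPM. With 1 fewer library, the lower count was 7 without U1 and 8 without U2. Leaving out 1 library ended the calls of ROBO1 (without U1, U2, D1, SD1 or SD2, adjusted p up to 0.310), SEMA6A (without U1, adjusted p = 0.0509) and NTNG1 (without U1 or U2, adjusted p up to 0.0823).

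Most cell division genes on the lists fell. Of 33 mitotic genes 27 fell and 0 rose, with a median of -0.43. MKI67, the Ki-67 antigen of dividing cells, fell from 270.4 and 273 to 166 and 197 CPM (log2 change -0.58, SE 0.14, adjusted p = 0.0137), TOP2A, a topoisomerase of mitotic chromosomes, from 388 and 365 to 229 and 241 CPM, and the spindle proteins NUSAP1 and KIF20A from 136 and 142 to 89.2 and 86.9 CPM and from 124 and 118 to 80.2 and 81.0 CPM. The checkpoint kinase BUB1B fell with a log2 change of -0.57 and the mitotic kinase PLK1 with -0.38. CDC20 and CCNB1 were not called, with log2 changes of -0.16 and -0.24, but without D1 CCNB1 was called lower (log2 change -0.42, adjusted p = 0.00303, edgeR). Leaving out libraries singly, the lower count was 15 without U1 or U2. Of 36 replication genes 28 fell and 2 rose (median -0.41). The helicase subunits MCM2 to MCM7 all fell, with a log2 change of -0.46 (MCM7) to -0.64 (MCM6, from 118 and 116 to 78.4 and 72.2 CPM). RRM2, which supplies deoxynucleotides, fell from 428 and 433 to 318 and 275 CPM, UHRF1 from 137 and 132 to 82.4 and 102 CPM, ORC1 with a log2 change of -0.57 and the transcription factor E2F2 with -0.97. CCNE1, the S phase cyclin, and RFC5 were the 2 that rose, with log2 changes of 0.48 and 0.30. With single libraries dropped, the higher count was 0 without U1 or D1 and 1 without U2, SU2, SD1 or SD2, and the lower count was 14 without U1 and 17 without U2. The calls that ended with 1 library left out were those of MKI67 (without U1, U2 or D1, adjusted p up to 0.145), PLK1 (without U1, adjusted p = 0.0567), ORC1 (without U1 or D1, adjusted p up to 0.0807) and E2F2 (without U1, adjusted p = 0.0686). Likewise for CCNE1 (without U1 or D1, adjusted p up to 0.186) and RFC5 (without U1, U2, D1, SU2, SD1 or SD2, adjusted p up to 0.463).

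Control of G1 was split, 6 of 20 higher and 6 lower. The cyclins and kinases CCND1, CCND2, CCND3 and CDK6 rose, CDK6 with a log2 change of 0.48 and CCND2 from 0 and 0.0501 to 0.294 and 0.485 CPM, and CDK2 fell with -0.37. CDKN2A, the locus of p16 and ARF, rose from 11.6 and 11.6 to 47.0 and 38 CPM (log2 change 1.87, SE 0.12, adjusted p = 3.02e-08), and counts per gene do not separate its 2 products. CDKN1A, the p21 inhibitor, was not called, at 325 and 323 CPM without doxycycline and 406 and 349 CPM with it. Without D2 it was called higher (log2 change 0.33, adjusted p = 0.0184, edgeR). E2F8 and the inhibitor CDKN2C fell with log2 changes of -0.97 and -0.60 and E2F5 rose with 0.66. With 1 library left out, the lower count was 3 without U2 or D1. Dropping 1 library lost the calls of CCND3 (without U1, U2, D1, SD1 or SD2, adjusted p up to 0.266).

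Targets of p53 rose in 15 and fell in 1 of 29 cases (median 0.27). MDM2, the ubiquitin ligase of p53, rose from 91.5 and 92.0 to 113 and 112 CPM (log2 change 0.29, SE 0.09), the antiproliferative BTG2 from 2.29 and 2.98 to 6.15 and 5.15 CPM, and GADD45A, PLK2 and TIGAR with log2 changes of 0.75, 0.71 and 0.67. FUCA1, a lysosomal fucosidase counted among the targets, rose from 0.171 and 0.200 to 3.62 and 3.45 CPM. Of the 8 apoptosis genes on this list 4 rose and 0 fell. Among those not called were BBC3, PMAIP1 and BAX, with log2 changes of -0.18, -0.071 and 0.11. When libraries were removed singly, the lower count was 0 without U1, U2, D2, SD1 or SD2. In the BCL2 family 2 of 16 rose and 2 fell, 12.5% each way, close to the 12.6% and 10.4% over all genes. BCL2L1, which encodes the survival protein BCL-xL, rose from 117 and 118 to 171 and 182 CPM. The effector BAK1 rose with a log2 change of 0.38. The death-promoting BCL2L11 fell from 1.81 and 1.6 to 0.883 and 0.558 CPM, and the death-promoting BMF from 6.86 and 6.92 to 2.41 and 3.83 CPM. Of 29 senescence regulators and lamina genes 12 fell and 0 rose (median -0.21). LMNB1, the lamin whose loss marks senescence, fell from 126 and 125 to 76.5 and 77.8 CPM (log2 change -0.70, SE 0.10, adjusted p = 6.67e-05), HMGB2 from 256 and 242 to 173 and 149.5 CPM, the methyltransferase EZH2 from 45.5 and 45.4 to 30.8 and 29.3 CPM and the Polycomb protein CBX2 from 4.86 and 4.56 to 2.85 and 2.45 CPM. In each of these 4 genes both doxycycline libraries lay under both untreated ones. With 1 library fewer the calls ended for MDM2 (without U1, U2 or D1, adjusted p up to 0.155), BAK1 (without U1 or U2, adjusted p up to 0.0709), BCL2L11 (without D2, adjusted p = 0.0545) and CBX2 (without U1, U2 or D2, adjusted p up to 0.101).

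**Figure D4:**
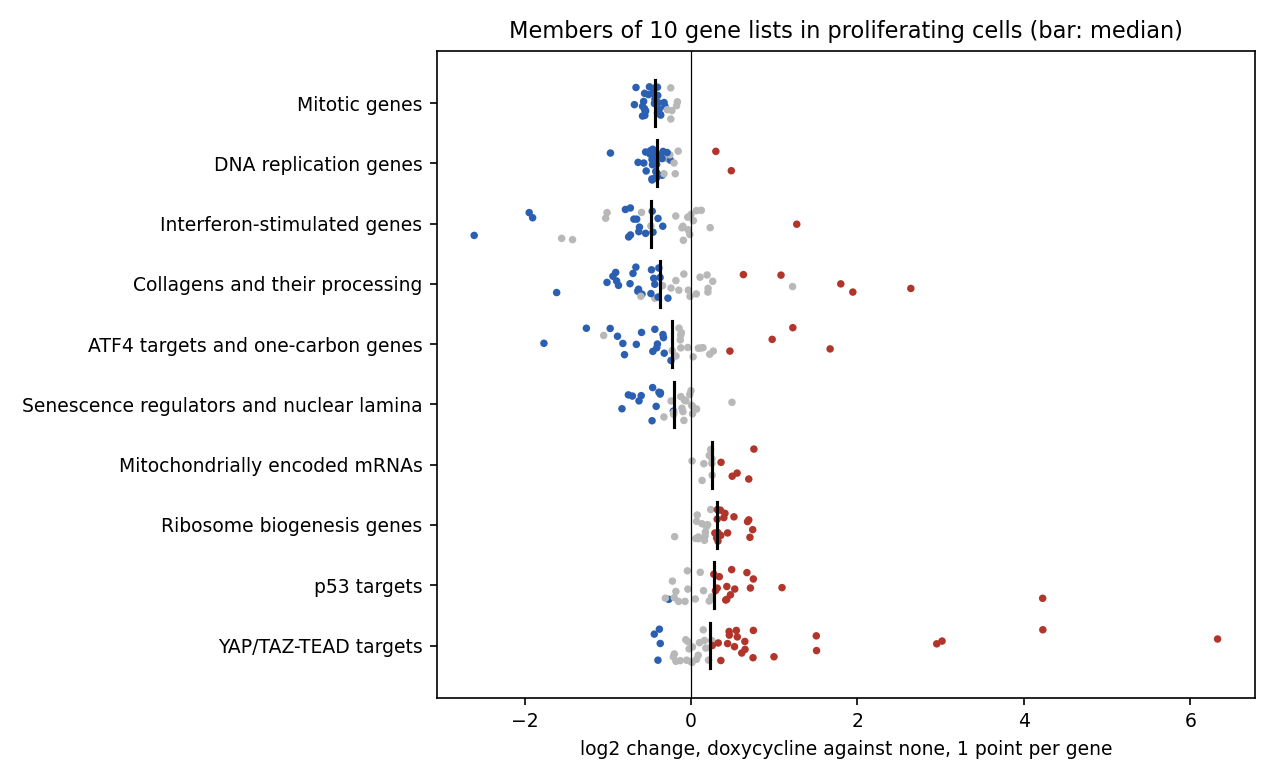
Log2 change with doxycycline (horizontal axis) of each tested member of 10 gene lists, with red points higher, blue points lower and grey points not called, and a black bar at the list median. All mitotic genes lie below 0, around a median of -0.43, and replication genes lie around -0.41 with CCNE1 and RFC5 above 0. YAP/TAZ-TEAD targets spread from -0.44 (NUAK2) to 6.33 (ANKRD1) around a median of 0.23.

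Inflammatory cytokines and chemokines moved both ways, 9 of 40 lower and 8 higher (median -0.29, or -0.34 with genes lacking counts in a group set at their bound). IL6, CXCL8 and LIF fell as given above, CXCL12 from 8.52 and 8.37 to 3.24 and 2.50 CPM, CSF2 from 0.732 and 0.626 to 0.0294 and 0.170 CPM and CSF1 from 88.4 and 91.3 to 54.5 and 59.5 CPM. IL18 rose from 0.0488 and 0.0752 to 1.76 and 1.82 CPM, the chemokine CCL2 from 2.66 and 2.73 to 5.36 and 4.88 CPM, and CCL11, without counts in untreated cells, reached 0.235 and 0.243 CPM. Of 21 NF-kappaB genes 2 rose and 7 fell (median -0.12): the subunits RELB, REL and NFKB1 fell with log2 changes of -0.58, -0.49 and -0.26, the kinase IKBKE with -0.58 and TRAF1 with -0.52, and the inhibitor TNFAIP3 rose with 0.61. In refits lacking 1 library, the higher count was 1 without U1, U2, D2, SD1 or SD2, and the lower count was 3 without U1 or D1, 2 without U2 and 4 without SD2. Lost on leaving out 1 library were the calls of REL (without U1, U2, D1, D2, SD1 or SD2, adjusted p up to 0.205), NFKB1 (without U1, U2 or D1, adjusted p up to 0.251) and TRAF1 (without U1, U2, D1 or SD2, adjusted p up to 0.243).

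Of 22 complement and adhesion genes 10 fell and 3 rose (median -0.33). C3, the central complement protein, fell from 2.66 and 3.16 to 0.530 and 0.631 CPM (log2 change -2.31, SE 0.19, adjusted p = 2.38e-07), the C1 proteases C1R and C1S with log2 changes of -1.18 and -1.06, and C1QTNF1, a C1q-like secreted protein, from 15.1 and 16.3 to 3.88 and 3.93 CPM. The complement inhibitors SERPING1 and CD55 rose, from 1.39 and 1.88 to 3.85 and 4.42 CPM and from 43.1 and 41.0 to 66.1 and 60.1 CPM. VCAM1, a leukocyte adhesion receptor, fell from 9.45 and 11.4 to 0.412 and 0.995 CPM and ICAM1 from 21.0 and 22.2 to 12.2 and 12.8 CPM. Of 35 interferon-stimulated genes 16 fell and 1 rose (median -0.48, or -0.51 at the bound). Several of those that fell were scarce, with OAS2 at 0.708 and 0.802 CPM without doxycycline and 0.118 and 0.267 CPM with it, and BST2 and MX2 at or under 1.03 CPM in every library. OAS3, a sensor of viral RNA, fell from 35.8 and 37.8 to 19.9 and 22.7 CPM, IFIH1 with a log2 change of -0.75 and the regulator IRF1 with -0.62. IFIT1 was the exception and rose from 16.2 and 17.5 to 42.2 and 39.1 CPM (log2 change 1.27, SE 0.09). It overlaps LIPA, which rose too, from 54.6 and 56.9 to 83.7 and 87.0 CPM. On removal of 1 library at a time, the lower count was 9 without U2 and 10 without D1. Leaving out 1 library ended the calls of SERPING1 (without D2, adjusted p = 0.0635), BST2 (without U2, D1 or D2, adjusted p up to 0.245), MX2 (without U2, D1 or D2, adjusted p up to 0.524) and IFIH1 (without U2 or D1, adjusted p up to 0.172).

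Prostaglandin and steroid enzymes were 3 higher and 6 lower of 19 tested (median -0.53, or -0.51 at the bound). AKR1C1, a hydroxysteroid dehydrogenase, fell from 6.54 and 7.26 to 1.79 and 1.68 CPM, AKR1B10 from 0.439 and 0.476 to 0.0588 and 0.0485 CPM, HSD17B2 from 11.6 and 12.6 to 4.94 and 4.61 CPM, and the prostaglandin receptor PTGER2 from 67.3 and 69.6 to 38.9 and 34.1 CPM. The cyclooxygenases PTGS1 and PTGS2 fell with log2 changes of -0.53 and -0.68, and the synthase PTGES rose with 0.85. By library left out, the higher count was 1 without U1 and 0 without U2. The calls that ended with 1 library left out were those of PTGS2 (without U2, D1 or D2, adjusted p up to 0.303) and PTGES (without U1, U2 or D1, adjusted p up to 0.258).

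Mitochondrial and ribosome-making genes leaned upward. Mitochondrially encoded mRNAs rose in 5 and fell in 0 of 13 cases (median 0.25), and took 5.59% and 5.94% of all counts without and 7.05% and 6.88% with doxycycline. ND2, a subunit of complex I, rose from 2406 and 2584 to 4245 and 3830.0 CPM (log2 change 0.69, SE 0.12), ND3 from 644 and 648 to 1242 and 940.5 CPM, and ND1, ATP6 and CYTB with log2 changes of 0.55, 0.50 and 0.36. Reads of ATP6 overlap those of ATP8 and COX3. With 1 fewer library, the higher count was 3 without U1. Respiratory chain subunits of the nucleus rose in 8 of 56 cases, or 14.29%, close to the 12.6% over all genes, and fell in 0. Their values differed between the doxycycline libraries, as in NDUFB3 at 28.5 and 28.7 CPM without doxycycline and 44.8 and 32.5 CPM with it and UQCRFS1 at 78.7 and 77.9 CPM without doxycycline and 114 and 91.0 CPM with it. Leaving out libraries singly, the higher count was 0 without U1, U2 or D1, 32 without D2, 4 without SD1 and 5 without SD2, and the lower count was 1 without D1. Of 43 genes of mitochondrial translation 13 rose and 0 fell (median 0.19), among them MRPS12 from 26.8 and 25.6 to 43.5 and 35.2 CPM and MRPL12 from 66.2 and 64.9 to 92.2 and 80.7 CPM. With single libraries dropped, the higher count was 5 without U1 or D1, 2 without U2 and 24 without D2. Of 21 genes of mitochondrial proteostasis and biogenesis 6 rose and 0 fell, with the chaperones HSPD1 and HSPA9, the protease CLPP and the DNA helicase TWNK at log2 0.40, 0.41, 0.46 and 0.48. With 1 library left out, the higher count was 3 without U2, and the lower count was 1 without D2. Dropping 1 library lost the calls of ATP6 (without U1, adjusted p = 0.0704), CYTB (without U1, U2 or D1, adjusted p up to 0.202), NDUFB3 (without U1, U2 or D1, adjusted p up to 0.228) and UQCRFS1 (without U1, U2 or D1, adjusted p up to 0.0638). Likewise for MRPL12 (without U2, adjusted p = 0.0554), HSPD1 (without U2, adjusted p = 0.0682) and TWNK (without U2, adjusted p = 0.0547).

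Of 29 ribosome biogenesis genes 16 rose and 0 fell (median 0.31). RRP12, an export factor of preribosomes, rose from 32.7 and 32.1 to 52.0 and 56.2 CPM (log2 change 0.74, SE 0.09, adjusted p = 1.27e-05), the RNA polymerase I subunit POLR1B from 24.5 and 24.9 to 34.1 and 36.5 CPM, and POLR1C, BYSL and NOP16, each overlapping another counted gene, with log2 changes of 0.69, 0.68 and 0.71. When libraries were removed singly, the higher count was 10 without U1 and 8 without U2, and the lower count was 1 without D1. Cytosolic aminoacyl-tRNA synthetases rose in 6 and fell in 1 of 20 cases, FARSA, RARS1 and HARS1 with log2 changes of 0.47, 0.35 and 0.31 and WARS1 falling with -0.31. In refits lacking 1 library, the higher count was 1 without U1 or U2, and the lower count was 0 without U2. With 1 library fewer the calls ended for RARS1 (without U1, U2 or D1, adjusted p up to 0.0856), HARS1 (without U1 or U2, adjusted p up to 0.104) and WARS1 (without U2, adjusted p = 0.188).

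Targets of ATF4, the stress factor of amino acid shortage, went the other way, with 16 of 35 lower and 4 higher (median -0.23). Genes of serine synthesis fell, PHGDH from 64.5 and 63.7 to 38.7 and 35 CPM (log2 change -0.80, SE 0.08), PSAT1 from 62.7 and 64.8 to 49.6 and 46.2 CPM and PSPH with a log2 change of -0.32, and the mitochondrial folate enzymes ALDH1L2 and MTHFD2 with -0.82 and -0.33. The glycine transporter SLC6A9 fell from 9.79 and 10.2 to 3.79 and 4.54 CPM. Both chains of the leucine transporter rose, SLC7A5 as given above and SLC3A2 from 118 and 114 to 236 and 219.8 CPM, as did CTH, the cystathionine lyase, from 1.83 and 1.98 to 4.77 and 4.15 CPM. ATF4 itself fell with a log2 change of -0.34. On removal of 1 library at a time, the lower count was 10 without U1 and 9 without U2. Lost on leaving out 1 library were the calls of ATF4 (without U1 or U2, adjusted p up to 0.0863), PSPH (without U1 or U2, adjusted p up to 0.149) and MTHFD2 (without U2, adjusted p = 0.0766).

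Of 39 genes of glycolysis and the hypoxia response 5 rose and 12 fell (median -0.13). The hypoxia-response members accounted for 7 of the falls and 0 of the rises. CA9, a carbonic anhydrase induced by HIF, fell from 4.74 and 3.21 to 1.12 and 0.947 CPM, BHLHE40, a circadian repressor induced by HIF, from 71.8 and 68.3 to 37.1 and 37.8 CPM, and NDRG1 and VEGFA as given above. Glycolytic genes moved 5 up and 5 down of 23: HK2 and SLC16A1, a lactate transporter, rose with log2 changes of 0.49 and 0.53, and PFKFB4 and ALDOA fell with -0.56 and -0.36. Of 37 genes of cholesterol and fatty acid metabolism 9 rose and 5 fell (median 0.12). The synthesis enzymes made up 7 of the rises, DHCR7, which makes the last step to cholesterol, from 10.8 and 11.7 to 26.8 and 28 CPM (log2 change 1.29, SE 0.09, adjusted p = 7.86e-08), and MSMO1 from 26.8 and 26.9 to 43.6 and 40.5 CPM. The exporter ABCA1 fell from 15.9 and 14.3 to 8.0 and 11.2 CPM. By library left out, the higher count was 5 without U2, and the lower count was 2 without U1 or D1 and 1 without U2. Lysosomal genes were even, 7 of 31 higher and 7 lower, with LIPA and NPC2, which handle lysosomal cholesterol, rising with log2 changes of 0.61 and 0.53 and the glucuronidase GUSB falling with -0.46. With 1 fewer library, the higher count was 3 without U1 or U2, and the lower count was 3 without U1 and 2 without U2. Leaving out 1 library ended the calls of CA9 (without D1 or D2, adjusted p up to 0.0834), ALDOA (without U1, U2, D1 or D2, adjusted p up to 0.277) and ABCA1 (without U1, U2 or D1, adjusted p up to 0.126).

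Several junction genes that were scarce in untreated cells rose. GJA5, the gap junction protein connexin 40, rose from 0.0488 and 0.0752 to 7.88 and 7.11 CPM (log2 change 6.84, SE 0.28, adjusted p = 9.18e-11). F11R, a tight junction receptor, rose from 0.488 and 0.476 to 2.79 and 2.89 CPM, CDH4, or R-cadherin, from 0.659 and 0.777 to 2.18 and 3.86 CPM, and the epithelial CDH1, without counts in untreated cells, reached 0.176 and 0.437 CPM. Of 31 cadherin and junction genes 7 rose and 5 fell, GJA1, the main connexin of fibroblasts, with a log2 change of -0.37. Leaving out libraries singly, the lower count was 3 without U1. Keratins rose in 6 and fell in 0 of 13 tested cases, and a further 15 of the 28 were too scarce to test. Of the 13, 2 (KRT14 and KRT33B) had no counts in untreated cells and so could rise but not fall. KRT18 and its partner KRT8 (49.3 and 45.1 against 91.6 and 88.7 CPM) were abundant, whereas KRT34, KRTAP2-3 and KRT4 stayed under 3 CPM, KRT34 at 2.83 and 2.11 CPM with doxycycline, and KRT14, without counts in untreated cells, reached 0.265 and 0.267 CPM. With single libraries dropped, the lower count was 1 without D1. KRT8 and KRT18 are also on the mesothelial marker list, whose 10 genes summed to 210 and 211 CPM without and 490 and 482 CPM with doxycycline, with WT1, UPK3B and ITLN1 at 0. The epithelial list summed to 4.64 and 5.61 CPM without and 4.41 and 4.88 CPM with it, with KRT5, SFTPC and NKX2-1 at 0. Of its 3 tested genes 1 rose and 0 fell. The calls that ended with 1 library left out were those of GJA1 (without U1, adjusted p = 0.0621).

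Vasoactive peptides and their receptors were 7 higher and 7 lower of 27 tested. Besides NPPB and EDN1, the natriuretic clearance receptor NPR3 rose from 0.781 and 0.526 to 4.86 and 5.53 CPM and the nitric oxide synthase NOS3 from 0.244 and 0.125 to 1.26 and 1.38 CPM. The bradykinin receptor BDKRB2 fell from 127 and 124 to 45.3 and 48.8 CPM (log2 change -1.42, SE 0.08, adjusted p = 4.09e-09) and the phosphodiesterase PDE5A with a log2 change of -0.77. Endothelial markers summed to 72.9 and 74.4 CPM without and 53.1 and 57.8 CPM with doxycycline, with CDH5 and CLDN5 at 0. Of the 5 endothelial markers tested 2 rose and 1 fell. With 1 library left out, the lower count was 4 without U1. Ion channel genes were 6 higher and 11 lower of 40 tested. TRPC channels went apart, TRPC4 rising from 0.317 and 0.351 to 7.53 and 8.62 CPM (log2 change 4.58, SE 0.23, adjusted p = 1.17e-09) while TRPC6 fell from 0.757 and 0.827 to 0.294 and 0.218 CPM. KCNK6, a potassium leak channel that overlaps YIF1B, rose from 0.879 and 0.601 to 14.9 and 14.2 CPM, and PIEZO1, the stretch-activated channel, was not called, with a log2 change of 0.10. When libraries were removed singly, the lower count was 6 without U1, U2 or D1.

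Doxycycline treatment of the bleomycin-treated cells, here called senescent, was set beside these changes, to ask which of them differ. The 11 days of that treatment were longer than the 9 days since bleomycin. The 2 comparisons share no library. In senescent cells 7951 genes were called, 46.3% of those tested, 22.6% higher and 23.8% lower. Of the 2158 genes higher in proliferating cells 1391, or 64.46%, were also called higher in senescent cells and 125, or 5.79%, lower; of the 1780 lower genes 1191, or 66.91%, were also lower and 88 higher. Across all genes tested Pearson's r between the log2 changes was 0.556 and Spearman's rho 0.443, a description over genes, which are not independent replicates. The test of the difference itself called 3407 genes, 19.9% of those tested, with 2021 (11.8%) higher and 1386 (8.08%) lower in proliferating cells. This split depends on the scaling: with total counts in place of TMM factors the median difference over all genes went from 0.032 to -0.150 and the calls became 1105 higher and 2639 lower. Of the 3938 genes called in proliferating cells 1284, or 32.61%, differed between the states, 267 with a larger and 524 with a smaller change of the same sign and 493 with opposite fitted signs. By library left out, the number of genes that differed was 1954 without U1, 1852 without U2 and 2022 without SD1, against 3407 with all.

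Several of the strongest responses of proliferating cells were larger than in senescent cells by that test. PAPPA had a log2 change of 4.17 in proliferating and -0.11 in senescent cells (difference 4.28, adjusted p = 5.78e-07), where its level was 214 ± 24.8 CPM without and 199 ± 30.0 CPM with doxycycline (mean ± SD, n = 2). By the same measure BMPER differed by 4.36, SERPINB2 by 3.10, ANKRD1 by 3.00 (6.33 against 3.33) and TGFB2 by 2.54. Opposite changes were seen in MMP1, which rose in proliferating and fell in senescent cells, 0.84 against -1.71, as did IFIT1, 1.27 against -1.40, and WTAPP1, 0.81 against -2.36. All 13 mitochondrially encoded mRNAs differed upward, that is, their change was higher in proliferating cells, with medians of 0.25 and -1.0 in proliferating and senescent cells, and with total counts the number was 13 as well. Interferon-stimulated genes and collagens had medians below 0 in both states, nearer to 0 in proliferating cells: 24 of 35 interferon genes differed upward, with medians of -0.48 and -1.63, and 23 of 41 collagen genes, with medians of -0.37 and -0.92 in the same order. With total counts these numbers were 22 and 17.

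In the other direction, ATF4 targets differed downward in 23 of 35 cases, 26 with total counts, with a median of -0.23 in proliferating and 0.42 in senescent cells. PSAT1 had log2 changes of -0.41 in proliferating and 1.54 in senescent cells, PCK2, a mitochondrial enzyme of gluconeogenesis, -0.87 and 1.17, DDIT4 -1.77 and 0.26, and the receptor ERBB3 1.54 and 4.84. DCN fell with a log2 change of -1.24 in proliferating cells against a change of 0.25 in senescent cells (adjusted p of the difference = 1.03e-06). The linker histone gene H1-10, the cell polarity gene LRRC1 and the adhesion gene FLRT2 differed by -1.78, -1.71 and -1.72, the zinc finger gene ZNF431 by -1.97 and R3HCC1L by -1.67. For other strong responses the difference did not pass the test: ZNF185 (4.47 against 4.58), CITED2 (1.25 against 1.31) and CEMIP (-2.07 against -1.93), which does not show that they are equal. Each difference between states named here as called was also called with any 1 library left out, whereas the calls of WTAPP1, H1-10 and LRRC1 within proliferating cells were not. Dropping 1 library lost the calls of H1-10 (without U2, adjusted p = 0.0816) and LRRC1 (without U1, U2, D1, D2, SU1, SU2, SD1 or SD2, adjusted p up to 0.331).

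**Figure D5:**
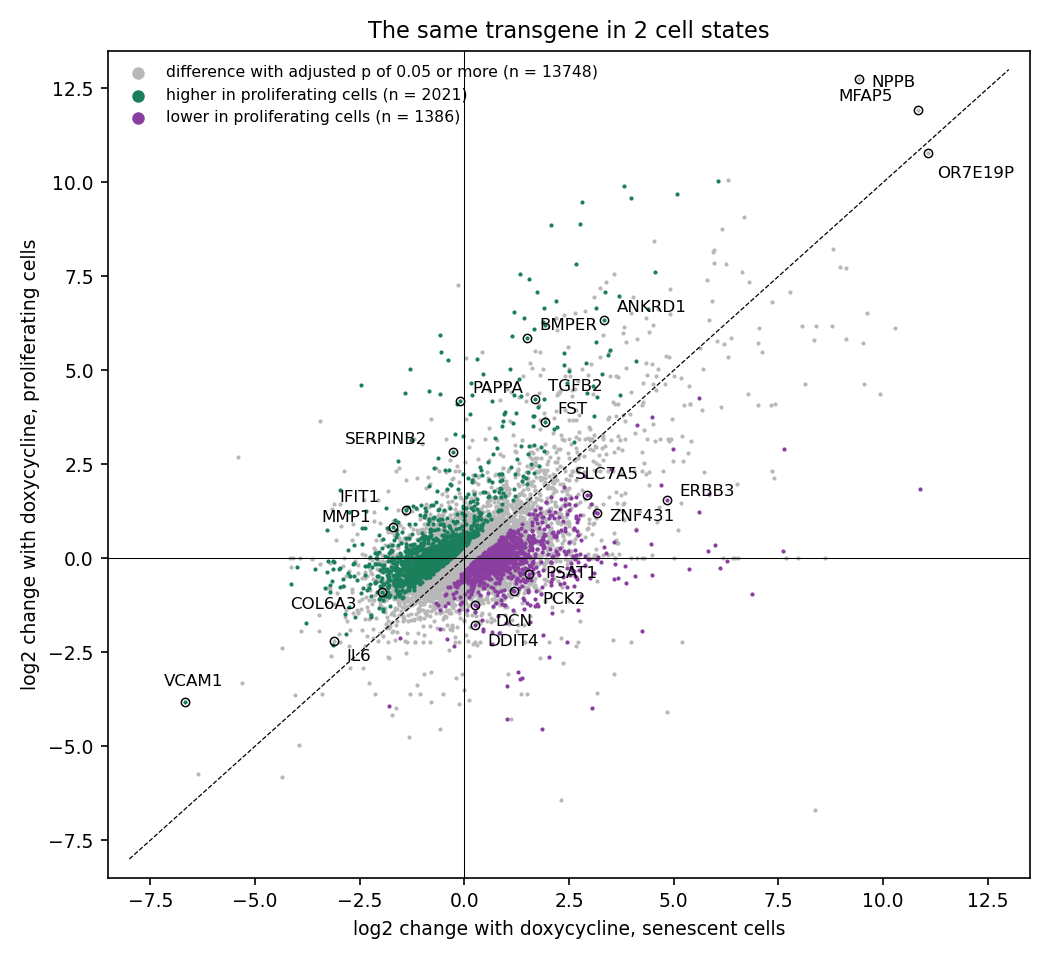
Log2 change with doxycycline in proliferating cells (vertical axis) against that in senescent cells (horizontal axis), 1 point per gene tested, with 2021 genes whose change is higher in proliferating cells in green, 1386 lower in purple, those without a called difference in grey, and a dashed line where both changes are equal. PAPPA and SERPINB2 lie near 0 on the horizontal axis and high on the vertical one, while ZNF431 and ERBB3 lie to the right of the dashed line.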

How the data were processed

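Poly(A) RNA of 8 libraries, 2 for each of 4 groups, was sequenced from TruSeq Stranded mRNA libraries, per the labels' protocols. The authors deposited whole-number counts per gene, made with Trimmomatic 0.36, HISAT2 2.1.0 and featureCounts 1.6.3 on hg38, per the submitters' processing notes. Which annotation and strand setting the counting used is not known here, which leaves overlapping, antisense and near-identical genes uncertain. All 8 columns of counts were matched to samples by the name in each sample's description.

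From the counts, edgeR 4.0.16 (R 4.3.3) gave TMM factors, kept 17155 of 54628 genes by filterByExpr and fitted all 8 libraries with a robust quasi-likelihood model, without a replicate term. The contrast of the proliferating groups was the main test, and its difference from the senescent contrast the second, each adjusted by Benjamini and Hochberg at 0.05. The fit had 4 residual degrees of freedom, a common biological coefficient of variation of 0.0904 and a median SE of 0.121 on the log2 scale. It was tested on simulated data. Fitted log2 changes used a prior count of 2. The alternatives were DESeq2 1.42.0, limma-voom (limma 3.58.1), DESeq2 size factors, total counts, no filter, a mean of at least 1 log2 CPM, both replicate blocks, only the 4 proliferating libraries, glmTreat against 1.5-fold, and each library left out.

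Genes named are YAP1; the 12 largest rises and falls at a mean of at least 3 log2 CPM and the 10 at 7 or more, without overlap between the groups; up to 5 called members of each list by size; 8 genes without counts in untreated cells; and 8 differences between states each way. Other list members are given where their list is described. The lists were written from textbook knowledge, and the genes, lists and tests were chosen with earlier results of these data known. List genes were matched by symbol, 14 of 1522 under another symbol. Some genes that this rule names, and 1 further list, are not reported here. Promoter windows and coordinates are from RefSeq, GRCh38.p14, and hg38. Tables and plots were made with Python 3.11.15, pandas 2.3.3, numpy 2.4.6 and matplotlib 3.10.9. No batch is labelled.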

Additional observations from a re-analysis of the deposited data

Results flagged for a closer look

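The effect of doxycycline in proliferating cells was set against that in senescent cells by the interaction term of the edgeR fit, adjusted over all genes tested, of which 19.9% were called. Of the 340 tested genes named in the report 182 differed, 126 with a higher and 56 with a lower log2 change in proliferating cells, and in 56 the fitted signs were opposite. These genes were named for their change in proliferating cells, for their list or for the difference between states itself. PCK2, ZNF431 and WTAPP1 are among the last, which were in the 182 by choice. Of the 340 genes 324 were called in proliferating cells, and of all genes called there 32.61% differed. The numbers therefore describe the genes named, and no excess over the share of all genes can be read from them. The values that follow are the log2 change in proliferating cells minus that in senescent cells.

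Among YAP/TAZ-TEAD targets it was 3.00 for ANKRD1, 2.54 for TGFB2, 1.35 for EDN1, 1.13 for WWC1, 0.97 for BIRC5, 0.80 for IGFBP3, 0.63 for THBS1, 0.58 for FOSL1, 0.48 for TAGLN, -0.44 for LATS2, -0.71 for AJUBA and -1.03 for CCN2. Among Hippo kinases and YAP partners it was 0.57 for TEAD2, -0.48 for TEAD1, -0.66 for TEAD4 and -0.84 for VGLL3. Among TGF-beta and activin signalling it was 1.86 for LRRC32, 1.69 for FST, 1.23 for INHBA, 0.83 for LTBP2, 0.77 for TGFB1, 0.60 for LTBP3, 0.44 for LTBP4, 0.40 for LTBP1, -0.37 for TGFBR1 and -2.82 for INHBE. Among BMP signalling it was 4.36 for BMPER, 0.99 for GREM1, -0.96 for ID1 and -1.59 for BMPR1B. Among contractile and actin genes it was 1.23 for ACTA2, 1.04 for CNN1, 0.89 for ACTG2, 0.64 for MYLK, 0.63 for LMOD1, 0.47 for SRF and -0.45 for MRTFA. Among collagens and their processing it was 1.39 for COL8A1, 1.10 for LOXL4, 1.06 for COL6A3, 0.93 for COL1A2, 0.92 for COL1A1, 0.81 for COL3A1, 0.80 for COL5A2, 0.69 for COL6A1, 0.54 for COL6A2 and -2.74 for COL11A1. Among elastic fibre and matrix glycoproteins it was 5.66 for SPP1, 2.20 for TNC, 1.38 for VCAN, 0.94 for CTHRC1, 0.66 for EFEMP1, 0.60 for CCN4, -0.61 for FN1, -1.31 for LUM and -1.49 for DCN. Among proteases and their inhibitors it was 3.10 for SERPINB2, 2.56 for MMP1, 1.10 for PLAU, 0.97 for MMP2, 0.54 for ADAMTS1 and 0.48 for PLAUR. Among integrins and laminins it was 0.78 for ITGB1, 0.71 for ITGA2, 0.65 for ITGA6, 0.47 for ITGAV and 0.42 for ITGA1. Among growth factor ligands and receptors it was 0.96 for HBEGF, 0.76 for EREG, 0.70 for NRG1, 0.53 for HGF, -0.58 for VEGFA, -1.05 for PDGFRA and -3.30 for ERBB3. Among ERK feedback genes it was 1.05 for CCND1, 0.90 for DUSP6, -0.45 for DUSP1 and -0.82 for DUSP5.

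Among AP-1 and immediate-early factors it was -0.63 for ATF3, -0.94 for KLF2 and -1.0 for JDP2. Among IGF-binding proteins it was 4.28 for PAPPA, 0.97 for IGFBP4 and 0.69 for IGFBP5. Among Wnt signalling it was 0.89 for LRP5. Among Notch signalling it was 1.27 for DLL4 and 0.67 for NOTCH3. Among mitotic genes it was 0.98 for MKI67, 0.76 for PLK1, 0.58 for KIF20A and 0.41 for NUSAP1. Among DNA replication genes it was 0.93 for CCNE1, 0.85 for RRM2, -0.82 for MCM2, -0.86 for RFC5 and -1.02 for MCM6. Among CDK inhibitors and G1 control it was 3.69 for CCND2, 1.02 for CDKN2A, 0.73 for CDKN1A, -0.54 for CDK2 and -0.81 for CDKN2C. Among inflammatory cytokines and chemokines it was 3.99 for CXCR4, 2.24 for CCL2, 1.48 for CSF1, 1.05 for CXCL12 and 0.73 for LIF. Among NF-kappaB pathway it was 0.99 for IKBKE, 0.85 for TNFAIP3 and 0.84 for TRAF1. Among complement and innate adhesion it was 2.84 for VCAM1, 1.70 for SERPING1, 0.96 for C1S, 0.83 for C1QTNF1, 0.82 for C3, 0.57 for ICAM1 and -0.57 for MASP1. Among interferon-stimulated genes it was 2.67 for IFIT1, 1.63 for OAS3, 1.07 for IFIH1 and 0.76 for IRF1.

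Among mitochondrially encoded mRNAs it was 1.53 for ND3, 1.51 for ND2, 1.43 for ND1, 1.36 for CYTB and 0.99 for ATP6. Among ATF4 targets and one-carbon genes it was -0.74 for PSPH, -0.88 for SLC3A2, -1.02 for ATF4, -1.12 for MTHFD2, -1.25 for SLC7A5, -1.49 for PHGDH, -1.55 for SLC6A9, -1.95 for PSAT1 and -2.03 for DDIT4. Among aminoacyl-tRNA synthetases it was 0.39 for FARSA. Among ribosome biogenesis genes it was 0.44 for RRP12. Among glycolysis and hypoxia response it was -0.71 for BHLHE40, -0.93 for NDRG1 and -2.62 for CA9. Among cholesterol synthesis and uptake it was 0.45 for DHCR7. Among lung fibroblast subtype genes it was 0.48 for TCF21. Among mesenchymal transcription factors it was 0.54 for ZEB1, -0.50 for TWIST1 and -0.51 for CEBPD. Among axon guidance genes it was 1.16 for SEMA6A, 1.05 for ROBO2 and 0.47 for ROBO1. Among cadherins and gap junctions it was -0.64 for GJA1. Among vasoactive peptides and receptors it was 1.44 for NPR3.

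Among keratins it was 2.07 for KRT34, -0.80 for KRT8 and -1.20 for KRT18. Among p53 targets it was 2.33 for FUCA1, 1.81 for BTG2, 0.70 for MDM2 and 0.65 for TIGAR. Among senescence regulators and nuclear lamina it was -0.60 for EZH2. Among BCL2 family it was 0.66 for BAK1. Among lysosomal genes it was 0.95 for LIPA and 0.62 for NPC2. Among ion channels it was 1.5 for TRPC4 and 1.13 for KCNK6. Among genes outside the lists it was 6.65 for PPFIBP2, 6.11 for CPA3, 4.63 for SLAMF7, 4.28 for PAPPA-AS1, 3.17 for WTAPP1, 1.16 for MAMDC2, 0.96 for CPA4, 0.89 for PCDH18, 0.67 for TRIM55, 0.49 for PPME1, 0.43 for PRPS1 and -0.40 for C2CD3. For further genes outside the lists it was -0.59 for LMCD1, -0.72 for SYNPO2L, -1.67 for R3HCC1L, -1.71 for LRRC1, -1.72 for FLRT2, -1.78 for H1-10, -1.97 for ZNF431 and -2.05 for PCK2.

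CPA3, CXCR4, PPFIBP2 and SLAMF7 had no counts in untreated proliferating cells and were tested because counts were present in another group. The fitted differences of these 4 genes depend on the prior count and are neither measured sizes nor bounds. SPP1 and CCND2 had next to no counts in untreated proliferating cells, so their fitted differences depend on the prior count as well.

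With DESeq2 size factors 179 of these 182 differences were called with the same sign and 3 were not called, those of LTBP1, PRPS1 and TGFB1. With total counts in place of TMM factors 154 were called with the same sign and 28 were not called: those of C3, COL6A2, CXCL12, DHCR7, EFEMP1, FARSA, HGF, ICAM1, ITGA1, ITGA2, ITGAV, KIF20A, LTBP1, LTBP3, LTBP4, NOTCH3, NUSAP1, PLAUR, PPME1, PRPS1, ROBO1, RRP12, SRF, TAGLN, TCF21, TGFB1, TRAF1 and ZEB1. In neither setting did a difference take the other sign. With any 1 library left out 129 of the 182 stayed called, and 53 were not called without 1 or more of them, most of these without U1, U2 or SD1: ATF3, BMPR1B, C2CD3, C3, CA9, CEBPD, COL11A1, COL6A2, CPA3, CXCL12, CXCR4, DHCR7, DUSP1, EFEMP1, EZH2, FARSA, FN1, FOSL1, ICAM1, ITGA1, ITGAV, KIF20A, KLF2, KRT34, LATS2, LMCD1, LTBP1, LTBP3, LTBP4, MKI67, MRTFA, NOTCH3, NUSAP1, PLAUR, PPME1, PRPS1, ROBO1, RRP12, SEMA6A, SLAMF7, SPP1, SRF, SYNPO2L, TAGLN, TCF21, TEAD1, TEAD4, TGFB1, TGFBR1, TRAF1, TWIST1, VCAM1 and ZEB1.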

How the results depend on the processing

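The number of genes called in proliferating cells was 3464 with DESeq2 to 4067 without a filter under the scaling, filter and tool alternatives, against 3938. Requiring more than 1.5-fold with glmTreat left 689 genes, 534 higher and 155 lower, because that test asks for a size of change. With 1 library left out the number ranged from 2011 to 4155, the higher genes from 1171 to 2320 and the lower genes from 840 to 1863. The replicate numbers of the titles and of the descriptions differ. Deviations from the group mean had correlations of -0.0121 to 0.159 between same-numbered libraries. With 2 libraries per group the deviations of a group mirror each other, so these values cannot show whether numbers mark shared cultures. A replicate block on the title number gave 4355 genes and one on the description number 2353, 1344 higher and 1009 lower, and for the difference between states these blocks gave 3871 and 2712. U1 is the only library with description number 2, so the block on that number gives it a term of its own and takes it out of the comparison. The shifts were not tested beyond this. For that difference, total counts gave 1105 genes higher and 2639 lower, and leave-one-out fits gave 1852 to 3903 genes, 1148 to 2340 higher and 704 to 1563 lower. Where a group was left with 1 library, that library is assumed to vary like the others.

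Of the 340 genes named, 324 of them called, 247 kept their side of the threshold under every alternative that gave a value and 93 did not. The 6 genes that changed sign under an alternative were not called with all libraries: leaving out D1 or D2 gave log2 changes of -0.05 and 0.28 for YAP1, -0.03 and 0.27 for TEAD1, -0.08 and 0.13 for JUN, -0.09 and 0.26 for PIEZO1, -0.15 and 0.01 for PMAIP1 and -0.28 and 0.03 for MRTFA, as lowest and highest values for each gene. Counts per gene cannot separate the transgene from the endogenous YAP1 transcript, and below about 1 CPM the tests rest on few counts, with 3 counts in a group equal to 0.0371 CPM without and 0.0399 CPM with doxycycline.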

Other observations

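Protein-coding genes made up 12878 of the genes tested, with 1844 higher and 1617 lower. Long noncoding RNAs were called higher in 201 and lower in 96 of 2113 cases, and pseudogenes in 34 and 12 of 988. Over all genes tested 12.6% were higher and 10.4% lower, and long noncoding RNAs and pseudogenes lay under both shares. These counts describe the annotation classes as matched by symbol, and 642 genes had no class.

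Beyond the 8 genes listed above, 80 further transcripts without counts in both untreated libraries were called higher. The noncoding RNA LINC00520 had 104 and 86 counts with doxycycline, NFASC, a neuronal adhesion protein, 51 and 85, and PTPRR, a tyrosine phosphatase, 51 and 68. These 3 genes were chosen after their values were seen.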
